A study of Mus musculus with 15 samples.

Results

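The miR-29 and miR-148/miR-152 families were described in small RNA of mouse foetal testes with and without Tex15, a gene needed for the methylation of young transposable elements in male germ cells. Members were all mature microRNA names numbered miR-29, miR-148 or miR-152, with any letter or arm suffix, in small RNA libraries of embryonic stage E16.5, late in foetal life. The rule found 12 of the 1305 mature names in these libraries, 6 of the miR-29 family and 6 of the miR-148/miR-152 family, and no member was chosen by how it differed between groups. RefSeq lists 13 mature names that meet the rule. The remaining name, miR-29a-5p, had no read in any library.

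The small RNA came from whole testes at E16.5, with 3 libraries of Tex15+/- controls and 3 of Tex15-/- testes on a mixed B6CBAF1/Crl and C57BL/6N background, each from a pool of 6 testes and size-selected to 15 to 40 nt. Tex15-/- is a null allele made by genome editing, and the line descends from 1 founder. RNA-seq counts of gonocytes, the germ cells of the foetal testis, came from 3 Tex15+/- and 3 Tex15-/- libraries of the same stage. According to the methods of the study the gonocytes were sorted by a tdTomato reporter inserted in Miwi2, which both groups carried as 1 copy.

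A microRNA guides an Argonaute protein to messenger RNAs whose 3′ untranslated region (3′UTR) pairs with its seed, here bases 2 to 8 from its 5′ end, and lowers their translation and stability. The miR-29 family is known for targeting collagens and other matrix genes, and also the de novo DNA methyltransferases Dnmt3a and Dnmt3b and the Tet enzymes that oxidise methylated cytosine. The miR-148/miR-152 family is known for targeting Dnmt1, the maintenance methyltransferase. Male gonocytes gain DNA methylation before birth through DNMT3A, DNMT3C and their cofactor DNMT3L.

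The dominant 3p arms of the 2 families fell under 2 seeds, shown in capitals in the RefSeq mature sequences below because the seed decides which messages can pair.
miR-148a-3p: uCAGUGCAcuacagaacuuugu
miR-148b-3p: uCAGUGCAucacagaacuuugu
miR-152-3p: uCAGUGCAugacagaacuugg
miR-29a-3p: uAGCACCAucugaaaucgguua
miR-29b-3p: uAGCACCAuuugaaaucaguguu
miR-29c-3p: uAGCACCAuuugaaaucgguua
Each seed was held by these 3 names and by no other of the 1679 mature names in RefSeq. Counted from 1 at the 5′ end, with the base of the first-named microRNA written first, miR-29a-3p and miR-29c-3p differed by C10U alone over 22 nt. MiR-29a-3p and miR-29b-3p differed by C10U, G18A, U21G and A22U. MiR-148a-3p and miR-148b-3p differed by C9U and U10C, and miR-148a-3p and miR-152-3p by C9U, U10G and U20G. The members of a family could therefore be told apart in reads of full length.

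The 3p arms come from 7 precursor genes, placed here in GRCm38.p6. MiR-148a-3p is at chr6:51269829-51269850 on the minus strand, in no annotated host gene. MiR-148b-3p is at chr15:103285185-103285206 on the plus strand in an intron of Copz1, and miR-152-3p at chr11:96850439-96850459 on the plus strand in an intron of Copz2, a paralogous pair of genes for the zeta subunit of the coatomer coat of transport vesicles. MiR-29a-3p is at chr6:31062673-31062694 on the minus strand, 330 bases from the copy of miR-29b-3p at chr6:31063025-31063047 (Mir29b-1). The other copy of miR-29b-3p (Mir29b-2) is at chr1:195037091-195037113 on the plus strand, close to miR-29c-3p at chr1:195037600-195037621 on the same strand, and both lie within exons of the non-coding gene A330023F24Rik. Reads of miR-29b-3p cannot be assigned to either copy.

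Depth set what could be seen of each member. The small RNA libraries held between 11184854 and 83102785 reads of 18 to 32 nt. Reads annotated as mature microRNAs, counted from 16 nt on, numbered 5671330 to 34180789. Levels below are reads of a name scaled to 1000000 mature microRNA reads (RPM). Spreads on them hold counting, library preparation and differences between the pools of testes together. Reads carried no molecular identifiers, so copies of 1 molecule cannot be told apart. Nothing in the labels says that libraries of a group came from separate litters, so each p-value measures the spread between these samples. Whole testes also hold somatic cells, and in such bulk samples fewer cells of a type and less RNA per cell cannot be told apart. The codes of the small RNA libraries used the letter T for control and C for Tex15-/-, whereas those of the gonocyte libraries used C for control and T for Tex15-/-. Groups were taken from the stated genotypes, with which a group tag inside the small RNA data agreed. Reads matching the sense strand of Tex15 did not separate the groups (1.67, 3.01 and 1.18 reads in 1000000 reads of 18 to 32 nt in control and 1.55, 10.5 and 1.63 in Tex15-/-), so the small RNA labels could not be checked by the targeted gene. If those labels were exchanged, every small RNA direction given below would turn. The summed levels of marker microRNAs of germ and other cell types overlapped between the groups in each of 6 lists. In control and Tex15-/- they were 3130 to 3447 and 3144 to 4752 RPM for germ and pluripotent cells, 37702 to 47539 and 31435 to 41071 for endothelium, and 13115 to 17524 and 14565 to 19387 for smooth muscle. They were 408 to 488 and 473 to 852 for red blood cells, 76.2 to 113 and 53.1 to 77.6 for leukocytes, and 2351 to 2473 and 1755 to 2523 for gonadal somatic cells. Single names did separate the groups: 6 of 19 germ and pluripotent names were lower in Tex15-/- without overlap and 0 higher, while their sum ran higher. Likewise 1 of 4 endothelial, 1 of 4 smooth muscle and 1 of 2 gonadal somatic names were lower, 1 of 7 red blood cell names was higher and 0 of 6 leukocyte names separated. These counts are on the RPM scale. Over all 580 names tested 10.2% were lower and 10.5% higher without overlap, but with TMM scaling, so the scales differ, and leaving out TMM moves the median log2 fold change of all names from -0.01 to -0.15. The part of these cells in the levels of the members was not tested. In Tex15-/- replicate 2, reads of 25 to 30 nt, the length of piRNAs, made up 24.7% of all reads, against 32.3% to 36.7% in the other 5 libraries.

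MiR-148a-3p was the most abundant mature microRNA in all 6 libraries. Its level was 218830, 185121 and 150729 RPM in the control libraries and 218700, 202652 and 187509 in Tex15-/-, which is 15.1% to 21.9% of all mature microRNA reads. It stood 1.26 to 2.32 times above the next name in the same library. The groups overlapped, with means of 184893 ± 34052 (SD, n = 3) and 202954 ± 15597 (SD, n = 3). The edgeR quasi-likelihood test gave a log2 fold change of 0.29 (SE 0.19), Tex15-/- over control, with an adjusted p of 0.49. It was 0.14 without control replicate 3, the lowest library.

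**Figure D1:**
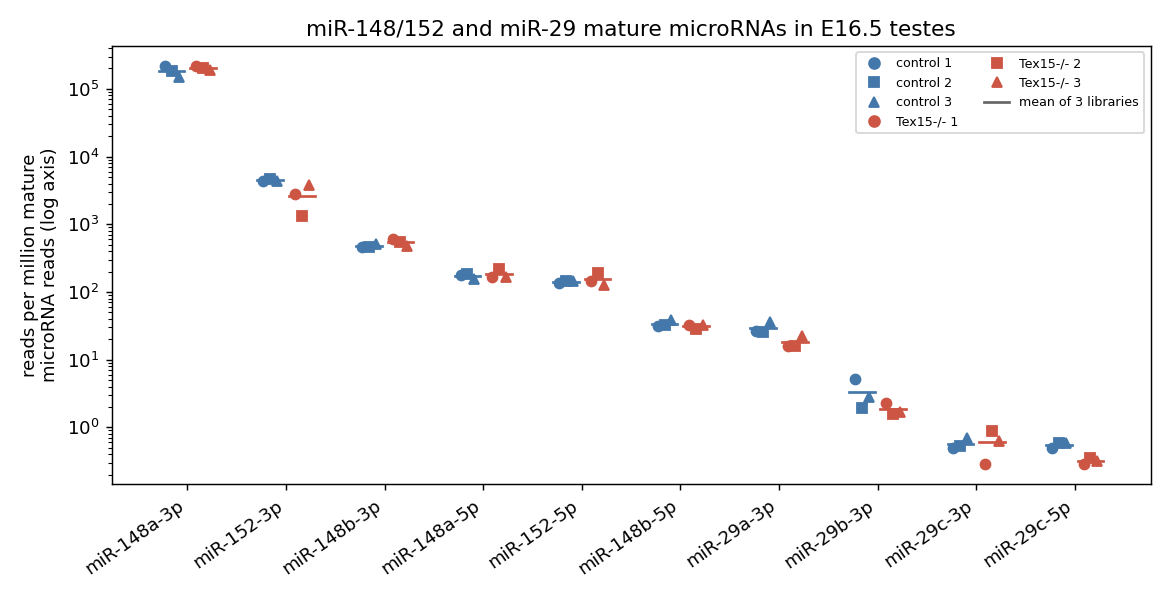
Level of 10 members in each of the 6 E16.5 libraries, in RPM on a log axis; each point is 1 library and the bar is the group mean. MiR-148a-3p sits at 150729 to 218830, miR-152-3p at 1317 to 4615 and every miR-29 name at 35.5 or lower, and miR-29b-1-5p and miR-29b-2-5p are left out because they had no read in 1 library each.

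The other members of the CAGUGCA seed were far less abundant. MiR-152-3p had 4393, 4615 and 4427 RPM in control and 2802, 1317 and 3783 in Tex15-/-. Every Tex15-/- library lay below every control library, and replicate 2 was the lowest. The means were 4478 ± 119 and 2634 ± 1241 (SD, n = 3 each), a ratio of 0.588. The Tex15-/- libraries spread more widely than the controls, and edgeR gave a log2 fold change of -0.63 (SE 0.33) with an adjusted p of 0.389. Without Tex15-/- replicate 2 the log2 fold change was -0.32 (adjusted p = 0.677 by edgeR).

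MiR-148b-3p had 464, 458 and 506 RPM in control and 614, 545 and 480 in Tex15-/-. The groups overlapped on this scale through Tex15-/- replicate 3, and edgeR gave a log2 fold change of 0.36 (SE 0.17) with an adjusted p of 0.372. After scaling by TMM, the edgeR factors that correct for the composition of each library, its groups did not overlap. The log2 fold change of miR-148b-3p was 0.20 without TMM and 0.21 without Tex15-/- replicate 1. The ratio of miR-152-3p to miR-148b-3p reads was 9.47, 10.1 and 8.75 in control and 4.56, 2.42 and 7.87 in Tex15-/-, without overlap. The 2 microRNAs share the seed, and with 3 libraries against 3 the two-sided exact permutation test gave p = 0.1 for this ratio, the smallest it can give.

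The miR-29 family was near the floor of these libraries. MiR-29a-3p, its most abundant name, had 26.2, 25.9 and 35.5 RPM in control, from 157, 884 and 303 reads. It had 15.8, 15.7 and 22.5 in Tex15-/-, from 111, 89 and 214 reads. All 3 Tex15-/- libraries were below all 3 controls. The means were 29.2 ± 5.46 and 18 ± 3.89 (SD, n = 3 each), a ratio of 0.617. The edgeR log2 fold change was -0.55 (SE 0.21), with an unadjusted p of 0.0319 and an adjusted p of 0.364, so the difference did not pass the threshold of 0.01.

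MiR-29b-3p had 5.17, 1.93 and 2.81 RPM in control and 2.28, 1.59 and 1.68 in Tex15-/-, with overlapping groups (log2 fold change -0.61, SE 0.43, adjusted p = 0.504 by edgeR). Each Tex15-/- library lay below the control of the same number. Control replicate 1 was the highest, and without it the log2 fold change was -0.17 (adjusted p = 0.935 by edgeR). MiR-29c-3p stayed below 1 RPM in every library, at 0.501, 0.527 and 0.703 in control and 0.285, 0.882 and 0.631 in Tex15-/-. MiR-29c-5p also stayed below 1, at 0.501, 0.585 and 0.586 against 0.285, 0.353 and 0.315. MiR-29b-1-5p and miR-29b-2-5p reached at most 10 and 9 reads in a library. These last 4 names did not pass the filter on low counts and have no fitted test.

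Neither family had a member past the threshold. Of the 12 names, 8 passed the filter, and edgeR called 0 of these 8 at an adjusted p under 0.01, as it called 0 of all 580 names tested (0%). At an unadjusted p under 0.05 it held 1 of the 8, miR-29a-3p, beside 79 of 580 names (13.6% of the names tested, made up of 5.52% lower in Tex15-/- and 8.1% higher). At an adjusted p under 0.05 it held 5 of the 580 names (0.862%) and no member. DESeq2 also called 0 of the 8, and 11 of all names. With TMM scaling, 2 of the 8 had Tex15-/- below control without overlap (miR-152-3p and miR-29a-3p) against 10.2% of all names, and 1 had it above (miR-148b-3p) against 10.5%. The median log2 fold change of the 8 was 0.13, and over all 580 names it was -0.01.

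Summed by seed, the 3p level of the miR-29 family was 31.9, 28.3 and 39.0 RPM in control and 18.4, 18.2 and 24.8 in Tex15-/-. The groups did not overlap, with means of 33.1 ± 5.44 and 20.5 ± 3.77 (SD, n = 3 each). The two-sided exact permutation test gave p = 0.1, the smallest that 3 against 3 allow, and 0.2 after Benjamini-Hochberg adjustment over 6 family sums. MiR-29a-3p made up 82.2% to 91.3% of these reads.

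The 3p level of the miR-148/miR-152 family was 223687, 190194 and 155662 RPM in control and 222116, 204514 and 191773 in Tex15-/-, with overlapping groups (p = 0.5 by the two-sided exact permutation test). MiR-148a-3p made up 96.8% to 99.1% of them, so the sum followed that name. Without miR-148a-3p the family had 5204, 5433 and 5272 RPM in control and 3764, 2299 and 4588 in Tex15-/-, without overlap (exact permutation p = 0.1, adjusted 0.2 over the 6 sums). MiR-152-3p was most of this sum, and of the other names miR-148b-5p had a lower and miR-148b-3p, miR-148a-5p and miR-152-5p a higher mean in Tex15-/-. For each miR-29 3p read, the controls held 7018, 6716 and 3991 miR-148/miR-152 3p reads and the Tex15-/- libraries 12069, 11261 and 7731. Reads of the miR-148/miR-152 3p seed were thus at least 3991 times as many as those of the miR-29 seed in every library. How reads of different microRNAs relate to numbers of molecules was not tested.

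The 5p arms are the strands usually discarded when a microRNA is loaded. MiR-148a-5p had 180, 185 and 157 RPM in control and 168, 216 and 167 in Tex15-/-. MiR-148b-5p had 31.2, 32.2 and 38.4 in control and 32.5, 28.0 and 32.9 in Tex15-/-. Both names overlapped between groups, with edgeR log2 fold changes of 0.23 (adjusted p = 0.566) and 0.03 (adjusted p = 0.939). Without TMM these fold changes were 0.079 and -0.12, and without Tex15-/- replicate 2 they were 0.084 and 0.088. MiR-148a had 99.9% of its reads on the 3p arm in every library.

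MiR-152-5p, the partner strand of miR-152-3p, had 136.5, 142.8 and 144.05 RPM in control and 147, 194 and 125 in Tex15-/-, with overlapping groups and an edgeR log2 fold change of 0.30 (SE 0.22, adjusted p = 0.518). The highest value was in Tex15-/- replicate 2, where miR-152-3p was lowest, and without that library the log2 fold change was 0.09 (adjusted p = 0.918 by edgeR). In Tex15-/- replicate 3 both arms lay below all controls. Reads of miR-152-3p for each miR-152-5p read were 32.2, 32.3 and 30.7 in control and 19.1, 6.80 and 30.2 in Tex15-/-. The 3p arm held 97.0%, 97.0% and 96.85% of miR-152 reads in control and 95.0%, 87.2% and 96.79% in Tex15-/-. These shares differed without overlap, but Tex15-/- replicate 3 lay at the edge of the controls and most of the difference came from replicate 2. Among the 37 shares compared, the exact permutation p of 0.1 became 0.74 after Benjamini-Hochberg adjustment. For miR-148b the 3p arm held 93.7%, 93.4% and 92.9% in control and 95.0%, 95.1% and 93.6% in Tex15-/-. The groups overlapped, and each Tex15-/- library lay above the control of the same number.

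MiR-152-5p was read from 2 alternative first bases, which give different seeds and are shown for that reason, with bases 2 to 8 of each form in capitals.
miR-152-5p, start at position 1: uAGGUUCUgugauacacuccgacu
miR-152-5p, start at position 2: aGGUUCUGugauacacuccgacu
Reads began at position 1 of the RefSeq sequence in 46.5%, 48.5% and 52.7% of cases in control and 55.4%, 50.7% and 51.7% in Tex15-/-. Reads began at position 2 in 53.5%, 51.5% and 47.2% of cases in control and 44.6%, 49.2% and 48% in Tex15-/-. The groups overlapped for both starts. These shares are of reads annotated as mature, and reads that begin before position 1 were not searched for outside this class. In each library 99.7% of miR-148a-3p reads, 99.6% to 99.8% of miR-148b-3p reads and 99.4% to 100% of miR-29a-3p reads began at position 1. For miR-152-3p the share was 99.73%, 99.70% and 99.74% in control and 99.60%, 99.65% and 99.70% in Tex15-/-, lower without overlap by a mean of less than 0.1 percentage points (exact permutation p = 0.1, adjusted p = 0.74 over the 37 shares).

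At the 3′ end the 3 names of the CAGUGCA seed differed from each other. The shares in this paragraph are of reads annotated as mature. Reads with added 3′ bases are mostly left out of them and are counted below, so shares among all reads of a name are lower. MiR-148a-3p had the exact RefSeq sequence in 99.6% to 99.7% of its mature reads. MiR-152-3p had it in 87.0% to 91.5%, with overlapping groups. MiR-148b-3p had it in 65.3%, 70.5% and 77.4% of mature reads in control and 56.9%, 63.1% and 61.0% in Tex15-/-. This share was lower in each Tex15-/- library without overlap. Among mature reads the difference was taken up by a form of 21 nt without the last base. That form was at 33.9%, 28.2% and 21.4% in control and 42.1%, 36.5% and 37.7% in Tex15-/-. The separation of the exact form holds for mature reads only, because the share of miR-148b-3p reads left out also differed between the groups. In RPM the exact form of miR-148b-3p overlapped between the groups, while its 21-nt form was higher in Tex15-/- without overlap. Over the 195 names for which the share of the leading sequence was computed, that share was lower without overlap in 5.64% and higher without overlap in 7.69%. The adjusted exact permutation p for miR-148b-3p was 0.74 over the 37 shares. In miR-29a-3p the 21-nt form was the most frequent, at 49.4% to 59.4% of reads, and the exact sequence of 22 nt held 24.3% to 36.4%.

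Reads with added bases at the 3′ end were mostly annotated outside the mature class. All reads that began with the first 18 nt of a mature sequence were therefore also counted, whatever their class. The main forms of miR-152-3p and miR-148b-3p are shown to make the differences at the 3′ end visible, with bases beyond the RefSeq end in capitals, of which the G is also the next base of the genome.
miR-152-3p, RefSeq: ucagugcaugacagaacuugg
miR-152-3p, added U: ucagugcaugacagaacuuggU
miR-152-3p, added G: ucagugcaugacagaacuuggG
miR-148b-3p, RefSeq: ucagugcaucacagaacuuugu
miR-148b-3p, added U: ucagugcaucacagaacuuuguU
The RefSeq form of miR-152-3p had 3823, 4223 and 4033 RPM in control and 2457, 1155 and 3431 in Tex15-/-. The form with an added U had 1341, 1619 and 1614 in control and 1354, 932 and 1303 in Tex15-/-. The first form did not overlap between groups and the second did.

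Reads of miR-152-3p outside the mature class made up 39.3%, 43.6% and 43.6% in control and 50.8%, 59.5% and 41.6% in Tex15-/-. The groups overlapped through Tex15-/- replicate 3. For miR-148b-3p the share was 35.4%, 38.6% and 37.5% in control and 31.4%, 32% and 32.7% in Tex15-/-, lower without overlap, as it was for 16.9% of the 160 names with enough reads, while 1.25% were higher without overlap. For miR-148a-3p it was 1.09% to 1.42%. Of these outside reads, 99.3% for miR-152-3p were placed in the class of transposable element RNA, where the authors allowed 3 mismatches.

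Counted with these reads, miR-152-3p had 7214, 8153 and 7826 RPM in control and 5670, 3239 and 6455 in Tex15-/-. The groups still did not overlap, and the log2 fold change was -0.45 (adjusted p = 0.342 by edgeR). Among reads of all mature names, 21 nt reads, the length of miR-152-3p, were 26.7% to 26.9% in control and 24.4%, 22.6% and 25.5% in Tex15-/-. The part of this length difference in the value of miR-152-3p was not tested.

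**Figure D2:**
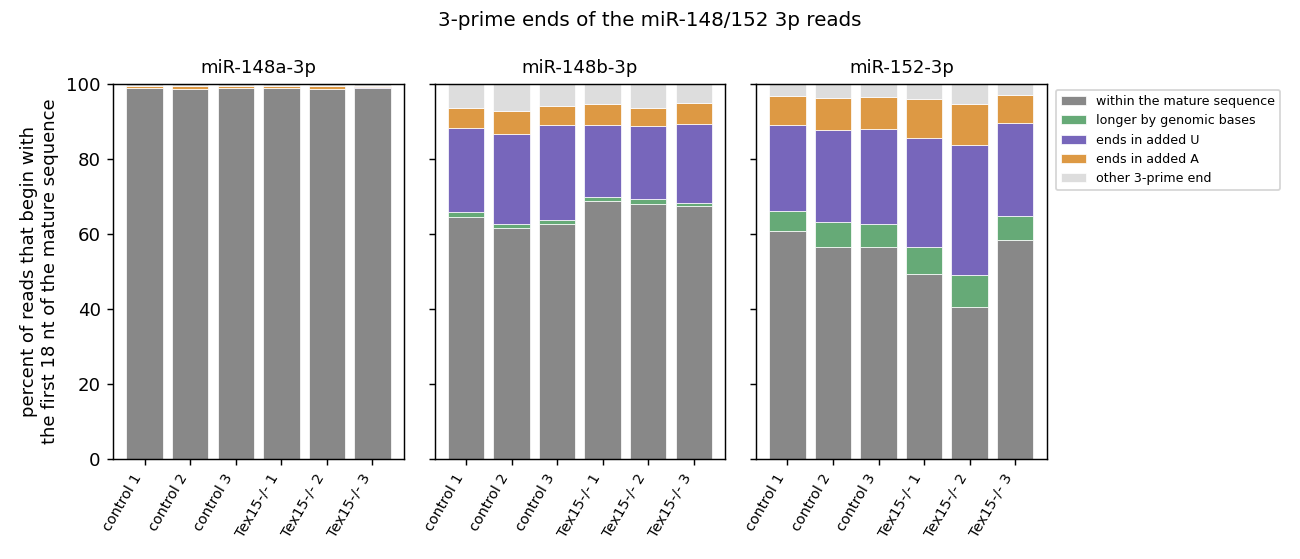
Share of reads (percent) that begin with the first 18 nt of miR-148a-3p, miR-148b-3p and miR-152-3p, by the form of the 3′ end, in stacked bars for each of the 6 libraries. Nearly all of miR-148a-3p lies within the RefSeq sequence, a class that holds the full and the shortened forms together. The other names carry more added bases and other 3′ ends. The miR-152-3p bar of Tex15-/- replicate 2 holds the smallest share of that name within the RefSeq sequence (40.5%).

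The microRNAs whose levels went most with each family across the 6 libraries were found among 190 names with a mean of at least 100 RPM. For the miR-29 3p sum these were miR-32-5p (Pearson r of 0.968), miR-30e-5p (0.961) and miR-322-5p (0.957). For the miR-148/miR-152 3p sum they were miR-547-3p (0.889), miR-151-3p (0.843) and miR-30e-3p (0.824). For miR-152-3p alone they were miR-125b-5p (0.996), miR-369-3p (0.993) and miR-21a-5p (0.992), each lowest, like miR-152-3p, in Tex15-/- replicate 2. These values describe 6 libraries that share depth, pools and the mature total, and have no test.

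The genes of DNA methylation were next searched for letters complementary to the seeds, in 1 annotated 3′UTR a gene. This was the longest among the protein-coding transcripts of the gene, and whether gonocytes use it was not tested. A match to the miR-29 seed was TGGTGCT, or GGTGCTA, and an 8mer joins both as TGGTGCTA. A match to the miR-148/miR-152 seed was TGCACTG, or GCACTGA, and the 8mer is TGCACTGA. Only the transcribed strand was searched, an 8mer was counted once, and matches that overlap at other offsets were counted apart. Over 20993 genes with a 3′UTR, 16% held a miR-29 match (8mer 2.85%) and 18.9% a miR-148/miR-152 match (8mer 3.58%). Of the 10 genes listed, Dnmt3c had no 3′UTR in the gene model, which left 9.

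Matches to miR-29 were in 6 of the 9 genes. Tet3 had 10 in 5669 nt, Tet1 had 8 in 7962 nt and Tet2 had 5 in 3058 nt. These encode the enzymes that oxidise 5-methylcytosine. Dnmt3a, the de novo methyltransferase, had 6 in 6696 nt, Dnmt3b had 2 in 1331 nt, and Tdg, the glycosylase that removes oxidised cytosine, had 3 in 2079 nt. Dnmt1, its recruiting factor Uhrf1 and the cofactor Dnmt3l had 0. Long 3′UTRs hold more matches by length alone. Among genes within 20% of the same length, 54.5% held a match as Dnmt3a did, 0.607% held as many as Dnmt3a and 0.138% as many as Tet3. These shares, here and below, count the gene itself, and among the 725 genes of like length Tet3 alone had as many.

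Matches to miR-148/miR-152 were in 3 of the 9 genes. Dnmt1 had 1 in a 3′UTR of 312 nt, an 8mer, which 1.06% of genes of like length held. Uhrf1 had 1 in 984 nt, also an 8mer, which 2.37% of genes of like length held. Tdg had 2 that overlap each other, neither an 8mer. Dnmt3a, Dnmt3b, Dnmt3l, Tet1, Tet2 and Tet3 had 0, so the 2 seeds shared Tdg alone among these genes. A match is a description of letters and shows no pairing or effect.

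Of the matches, 1 of 30 bases is shown for each of 5 genes to place the seeds in the transcripts, as DNA on the strand of the gene in GRCm38.p6 with the match in capitals.
Dnmt1, miR-148/miR-152, chr9:20907487-20907516, minus strand: ctcacccagagccccacgTGCACTGAtgtt
Uhrf1, miR-148/miR-152, chr17:56323097-56323126, plus strand: agcctggttttcagagagTGCACTGActgg
Dnmt3a, miR-29, chr12:3911387-3911416, plus strand: ttgcccaggggaggtagcTGGTGCTAgcac
Dnmt3b, miR-29, chr2:153686608-153686637, plus strand: tgcttagagtagcccggcaTGGTGCTcatg
Tet2, miR-29, chr3:133466169-133466198, minus strand: ttgggtgttaacattaaaTGGTGCTAcaaa
All 5 lie in the 3′UTR of the named gene.

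**Figure D3:**
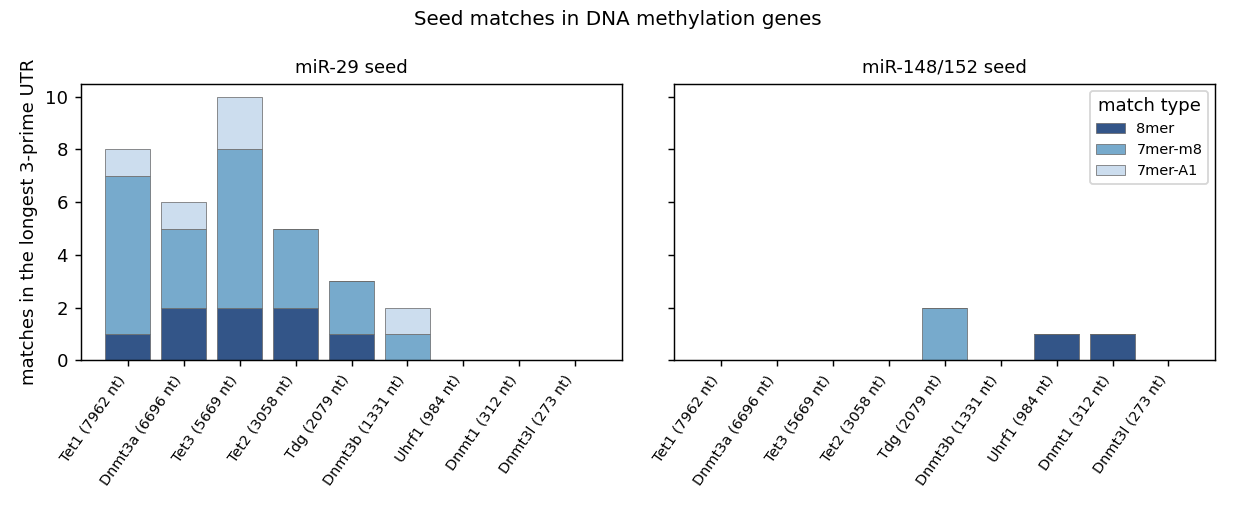
Number of seed matches in the longest annotated 3′UTR of each of the 9 DNA methylation genes, as stacked bars from 0 with 1 panel for each seed. Bars are split by type into 8mer, 7mer-m8 (pairs with bases 2 to 8) and 7mer-A1. The 7mer-A1 pairs with bases 2 to 7 and has an A opposite base 1. MiR-29 matches stand in the Tet genes, Dnmt3a, Dnmt3b and Tdg, and miR-148/miR-152 matches in Dnmt1, Uhrf1 and Tdg.

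The transcripts of the same genes were compared in sorted gonocytes. Gene levels are TMM-scaled counts in 1000000 counts on genes (CPM), which do not correct for gene length and are compared between groups only. Tex15 had 1591 ± 86.9 CPM in control and 313 ± 130 in Tex15-/- (SD, n = 3 each). It was lower in every Tex15-/- library without overlap, with a log2 fold change of -2.35 (SE 0.23) and an adjusted p of 0.0108, just above the threshold. With 1 library left out the log2 fold change ran from -2.74 to -2.17, with an edgeR adjusted p from 2.1e-09 (without Tex15-/- replicate 1) to 0.275 (without control replicate 3). EdgeR called 0 of 16311 genes (0%) at 0.01, with 1497 at an unadjusted p under 0.05, while DESeq2 called 15, Tex15 among them.

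Gonocyte libraries 2 and 3 of Tex15-/- held more somatic transcripts than the others, except for the endothelial sum in library 3. The marker sums are CPM without TMM scaling, unlike the gene values. Markers of interstitial cells summed to 49.6 to 63.4 CPM in control and 50.5 to 1180 in Tex15-/-, and Leydig cell markers to 17.3 to 52.3 and 31.5 to 457. Sertoli cell markers summed to 4.50 to 4.59 and 5.39 to 54.2, endothelial markers to 38.5 to 43.0 and 27.5 to 161, and blood markers to 0.734 to 1.23 and 0.997 to 5.02. In Tex15-/- library 3, TMM-scaled Pecam1 (10.6 CPM) and Cdh5 (16.6) of the endothelial list lay below all controls, while Kdr (6.61) lay above them. Germ cell markers summed to 1160 to 1225 and 1023 to 1124. No gene of these marker lists was at 0 in all libraries, and the part of these cells in the values below was not tested. Values given below without those 2 libraries, a choice made after the data were seen, set 1 Tex15-/- library against 3 controls.

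Of the 10 DNA methylation genes, edgeR called 0, and DESeq2 also called 0. At an unadjusted p under 0.05 edgeR held 1 of 10, Tet2, beside 9.18% of all genes (6.22% higher in Tex15-/- and 2.96% lower). At an adjusted p under 0.05 it held 0.0184% of all genes and none of the 10. In 9 of 10 the fitted difference was above 0, against 8337 of all 16311 genes tested. The median log2 fold change of the 10 was 0.16 against 0.01 over all genes tested. Dnmt3l, Tet1, Tdg and Dnmt3c changed direction without the 2 libraries rich in somatic transcripts.

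Dnmt1, which carries the 8mer for miR-148/miR-152, had 304, 262 and 255 CPM in control and 282, 343 and 276 in Tex15-/-. The groups overlapped, and edgeR gave a log2 fold change of 0.13 (SE 0.11, adjusted p = 0.707), which was 0.025 without Tex15-/- replicate 2. Uhrf1, the other gene with this 8mer, had 23.0, 17.2 and 19.8 in control and 23.0, 37.1 and 23.6 in Tex15-/-. Its groups touched without overlap, replicate 2 of Tex15-/- was the highest, and the log2 fold change was 0.48 (SE 0.23, adjusted p = 0.553 by edgeR). In the 1 Tex15-/- library without many somatic transcripts the log2 fold change of Uhrf1 over the controls was 0.20.

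Among the genes with miR-29 matches, Dnmt3a had 604, 568 and 571 CPM in control and 584, 657 and 614 in Tex15-/-, with overlapping groups and a log2 fold change of 0.09 (SE 0.09, adjusted p = 0.74 by edgeR). This fold change was 0.043 without Tex15-/- replicate 2 and 0.13 without replicate 1. In the 1 Tex15-/- library without many somatic transcripts it was 0.0067. Dnmt3b had 25.3, 14.3 and 22.1 against 22.8, 29.1 and 21.2, also overlapping (log2 fold change 0.24, adjusted p = 0.748 by edgeR, and 0.038 on the log2 scale without control replicate 2). Tet2 had 54.8, 66.3 and 64.3 in control and 82.4, 78.3 and 75.5 in Tex15-/-. All 3 Tex15-/- libraries were above all controls, with means of 61.8 ± 6.14 and 78.7 ± 3.44 (SD, n = 3 each). The log2 fold change of Tet2 was 0.35 (SE 0.12), with an unadjusted p of 0.0149 and an adjusted p of 0.459 by edgeR, and in the 1 Tex15-/- library without many somatic transcripts it was 0.41.

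The remaining genes had overlapping groups and log2 fold changes between -0.08 and 0.17. Tet1 was at 0.12, Tet3 at 0.17 and Tdg at 0.17, each with miR-29 matches, and Tet3 was at 0.011 without control replicate 3. Dnmt3l, the cofactor of de novo methylation, was at 0.15 and Dnmt3c, the methyltransferase of young transposable elements, at -0.08. In the 1 Tex15-/- library without many somatic transcripts, Tet1 was at -0.039, Tdg at -0.10, Dnmt3l at -0.086 and Dnmt3c at 0.043, while Tet3 stayed above 0. Groups did not overlap, with Tex15-/- higher, in 2 of the 10 genes, Tet2 and Uhrf1, against 6.8% of all genes tested, and lower in none, against 6.42%.

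**Figure D4:**
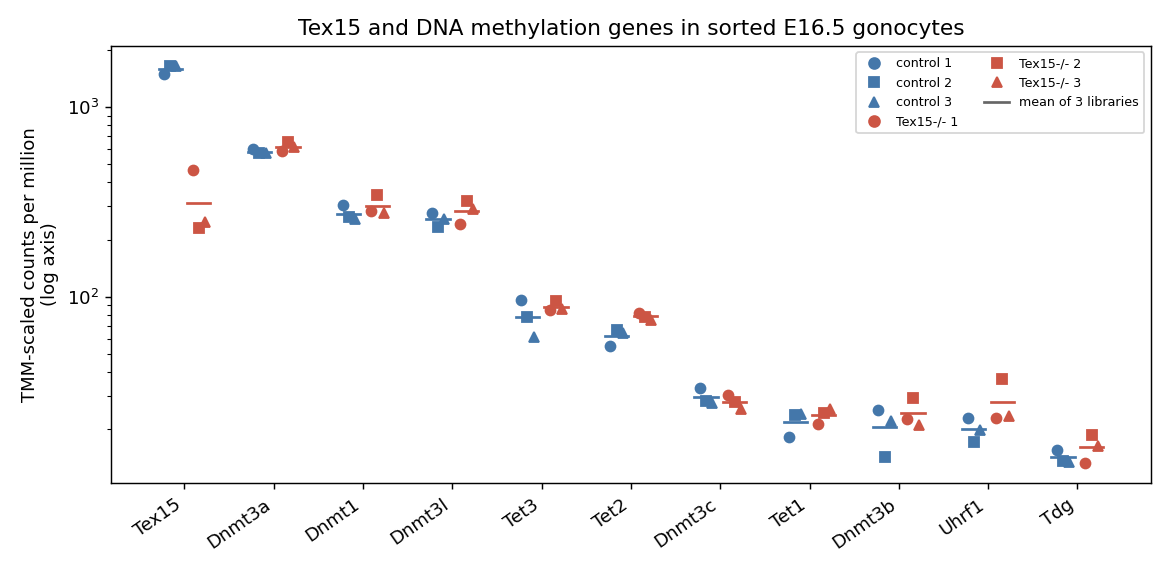
TMM-scaled CPM of Tex15 and the 10 DNA methylation genes in 6 gonocyte libraries on a log axis; each point is 1 library and the bar is the group mean. Tex15 separates the groups by the widest gap, Tet2 and Uhrf1 lie higher in Tex15-/- without overlap, and the other 8 genes overlap.

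The host genes of the miR-148/miR-152 family were read in the same gonocytes. Copz1, the host of miR-148b, had 30.8, 31.7 and 32.4 CPM in control and 29.7, 40.1 and 34.4 in Tex15-/-, with overlapping groups (adjusted p = 0.783 by edgeR). Copz2, the host of miR-152, had 1.09, 1.39 and 1.08 in control and 1.98, 13.6 and 4.72 in Tex15-/-, with no overlap and a log2 fold change of 2.50 (adjusted p = 0.453 by edgeR). The highest values of Copz2 were in the 2 libraries rich in somatic transcripts. The small RNA came from whole testes and the gene counts from sorted cells in a separate experiment, so the microRNA and the gene values are set side by side and were not correlated.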

How the data were processed

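The authors trimmed small RNA reads (cutadapt 1.8.1), collapsed them, annotated sequences with bowtie (1.2.1.1), mature microRNAs first, and deposited the count of reads for each sequence. Another deposited column, a scaling constant per library computed by the authors from its mature reads, was only checked. Gonocyte reads were aligned with HISAT2, and the authors deposited counts per Ensembl gene from HTSeq 0.11.1; the lines that name no gene held 61.3% to 67.3% and were left out. Whether these counts used strand is not given in the sources used here, so overlapping genes are uncertain.

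Distinct sequences of the mature class, which begin at 16 nt, were summed per name. Names and genes were tested with edgeR 4.0.16 in R 4.3.3 (quasi-likelihood test, TMM, filterByExpr with a minimum count of 10 and total of 15, Benjamini-Hochberg adjustment over all names or genes, threshold 0.01), and with DESeq2 1.42.0 as an alternative. SEs were derived from the fold change and its F statistic. Sums and shares had two-sided exact permutation tests (scipy 1.17.1, smallest p 0.1). Python 3.11.15, numpy 2.4.6, pandas 2.3.3, pysam 0.24.0 and matplotlib 3.10.9 were used, and scripts were tested on simulated data. Sequences and positions come from RefSeq for GRCm38.p6, and all 12 members were matched by name. The 3′UTRs come from the GENCODE annotation of GRCm38.

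Named were all members, those with at least 10 RPM in any library by library, the 10 DNA methylation genes, Tex15, and 3 names most like each family sum. Other genes, such as hosts, and the names most like miR-152-3p were named after their values were seen. The members, lists and tests were chosen with earlier results of these data known. Same-numbered small RNA libraries deviated together weakly (r of 0.134, 0.355 and 0.277 for the 3 numbers, and -0.348 to 0.0452 for other combinations). The labels name no pairs, so a pairing by number is uncertain. It was used in the replicate block and where a control of the same number is named, and not in the permutation tests. The repeat counts and 3 libraries of testes at postnatal day 20 were not used here.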

Additional observations from a re-analysis of the deposited data

How the results depend on the processing

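The 8 members with a fit had 120 alternative values, none of which passed the threshold (lowest adjusted p 0.141), and 115 kept their direction. The exceptions were all of miR-148b-5p (0.03): -0.12 without TMM, -0.032 without a filter, -0.0066 with the 18 to 32 nt reads as library size, -0.03 without control replicate 1 and -0.053 without Tex15-/- replicate 1 (up to 0.10 with another library left out). Leaving out TMM also moved the median of all names to -0.15. Log2 fold changes with 1 library left out ran from -0.93 to -0.32 for miR-152-3p, from -0.70 to -0.41 for miR-29a-3p, from -0.92 to -0.17 (without control replicate 1) for miR-29b-3p, from 0.14 to 0.42 for miR-148a-3p, from 0.08 to 0.32 for miR-148a-5p, from 0.21 to 0.47 for miR-148b-3p and from 0.09 to 0.45 for miR-152-5p. The miR-29 3p sum (log2 ratio -0.69) stayed between -0.85 and -0.55 in 12 alternatives. The miR-148/miR-152 3p sum (0.12) ran from -0.0056, without control replicate 3, to 0.25 with 1 library left out, and was 0.27 with TMM factors. With each distinct sequence counted once, the 3p arm difference became 2.71 percentage points for miR-152 (-3.95 by reads, -5.85 to -1.04 with 1 library left out), -2.59 for miR-148a (0.0045 by reads, -0.0024 to 0.012) and 0.27 for miR-148b (1.198 by reads, 0.92 to 1.68).

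The number of microRNA names called (0 by edgeR, 79 at an unadjusted p under 0.05) was 7 without a filter, 11 by DESeq2 and 5 at an adjusted p under 0.05. It was 1 each with 18 to 32 nt reads as library size, with the newer quasi-likelihood estimate and with the 18-nt anchored reads, the last 2 chosen after the data were seen. It ran from 0 to 1 with 1 library left out (1 without Tex15-/- replicate 2). With the replicate number as a block it was 0 at either threshold (93 at an unadjusted p under 0.05), and the block changed no call of a member.

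The number of gonocyte genes called (0 by edgeR, 1497 at an unadjusted p under 0.05) was 488 without a filter, 15 by DESeq2, 2 with the newer estimate, 3 at an adjusted p under 0.05 and 18 without the 2 libraries rich in somatic transcripts, a choice made after the data were seen that leaves 1 Tex15-/- library, assumed to vary like the controls. It ran from 0 to 388 with 1 library left out (388 without Tex15-/- replicate 1, 5 without replicate 2, 1 without control replicate 1). With the replicate block it was 0, but same-numbered gonocyte libraries did not deviate together (r of -0.143, -0.0423 and -0.00825) and share only a number. The 10 DNA methylation genes had 0 calls in 120 alternatives (lowest adjusted p 0.138), and 115 kept their direction. The exceptions were Dnmt3c at 0.043, Dnmt3l at -0.086, Tet1 at -0.039 and Tdg at -0.10 without the 2 libraries, and Tet1 at -0.0084 without control replicate 1 (up to 0.19 with another library left out). With 1 library left out the log2 fold change ran from 0.025 to 0.21 for Dnmt1, 0.043 to 0.13 for Dnmt3a, 0.038 to 0.41 for Dnmt3b, -0.14 to -0.0013 for Dnmt3c, 0.052 to 0.26 for Dnmt3l, 0.22 to 0.60 for Uhrf1 (lowest without Tex15-/- replicate 2), 0.26 to 0.40 for Tet2, 0.011 to 0.34 for Tet3 and 0.052 to 0.30 for Tdg. Tex15 passed the threshold by DESeq2, without a filter, with the newer estimate, without Tex15-/- replicate 1 or 2 and without both somatic-rich libraries, and missed it in the other fits. The cause of these changes was not tested. MiR-29b-3p had 9 to 66 and miR-29c-3p 2 to 18 reads a library, so their levels carry wide counting error.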
